A study of Mus musculus with 24 samples.

Results

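The integrated stress response is the programme by which a cell answers a block in mitochondrial, endoplasmic reticulum or amino acid supply. Its 10 core regulators were followed here in 4 tissues of mice whose hepatocytes lack *Crif1*. They are *Atf4*, *Atf5*, *Atf3*, *Ddit3*, *Cebpb*, *Cebpg*, *Nupr1*, *Trib3*, *Chac1* and *Ppp1r15a*, taken by gene symbol from the deposited table. All 10 were found among its 24532 genes (21135 had a value above 0 somewhere in the series). *Crif1* is listed there under its official symbol, *Gadd45gip1*, and encodes a mitochondrial protein needed to make the respiratory chain subunits that mitochondria translate themselves.

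Different stresses activate kinases that phosphorylate the translation initiation factor eIF2α. Most protein synthesis then slows, while the messages of *Atf4*, *Atf5* and *Ddit3* are translated better because of small upstream reading frames, so that ATF4 protein can rise with little change in its mRNA. ATF4, CHOP (the product of *Ddit3*) and their partners of the basic leucine zipper (bZIP) family switch on genes of amino acid supply and redox balance, and also brakes on the response itself, among them *Trib3* and *Ppp1r15a*. In liver, mitochondrial defects are known to raise this programme together with the secreted factors FGF21 and GDF15.

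RNA came from liver, inguinal white adipose tissue (iWAT), gastrocnemius muscle (GM) and hypothalamus. The mice were controls (Ctrl) or lacked *Crif1* in hepatocytes (LKO), both of strain C57BL/6, fed chow and labelled as 8 weeks old. Each genotype gave 3 libraries per tissue, 24 libraries in all. Ctrl mice carried Crif1flox/flox without Cre, and LKO mice carried the same floxed alleles with Alb-Cre, so both groups shared the floxed gene and an effect of Cre itself cannot be told apart from the loss of *Crif1*. The albumin promoter drives Cre in hepatocytes, and the other cells of the liver keep the gene. No label says if the 4 tissues were taken from the same animals. Which exons are floxed is not given in the sources used here. Nothing states that the 3 samples of a group are separate mice beyond their numbering, so the p-values measure the spread between these samples.

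Levels are given in FPKM (fragments scaled by transcript length and by the size of the library). LKO was compared with Ctrl inside each tissue with limma on log2(FPKM + 1), on which scale the change of low genes is understated. A gene counted as called at a Benjamini-Hochberg adjusted p under 0.05 with a fold of at least 1.5 on that scale. Depth was 4.45 to 8.09 gigabases per library, worked out from coverage and FPKM together. Tissue labels held against their markers. The sum of 6 hepatocyte genes was 41890 to 67750 FPKM in the livers and at most 252 elsewhere, 5 adipocyte genes summed to at least 20903 in iWAT, 5 muscle genes to at least 89948 in GM and 8 neuronal and hypothalamic genes to at least 2612 in hypothalamus. In liver the median log2 difference over all 10956 tested genes was 0.33, and it was -0.04 after median-ratio scaling, which moved the share of higher calls among all calls from 87.2% to 51.3%.

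*Gadd45gip1* was low in every LKO liver. It stood at 14.6, 12.5 and 13.6 FPKM in Ctrl livers 1, 2 and 3, and at 5.40, 2.0 and 2.51 FPKM in LKO livers 1, 2 and 3. The log2 difference was -1.84 (SE 0.27, limma adjusted p = 0.0036). LKO liver 1 thus kept the most, 0.398 of the Ctrl mean against 0.148 and 0.185 in LKO livers 2 and 3. Outside the liver *Gadd45gip1* did not pass the test, with log2 differences between -0.22 and 0.02.

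In liver, 6 of the 10 regulators rose in LKO mice and none fell, while 23.9% of all tested genes were called higher, 3.5% lower and 27.4% in either direction. The 6 were *Nupr1*, *Trib3*, *Atf3*, *Ddit3*, *Atf5* and *Cebpg*, which were also the ones whose LKO libraries all lay above all Ctrl libraries. That was so for 53.0% of tested genes, and the reverse, seen in no member, for 8.1%. *Atf4*, *Cebpb*, *Chac1* and *Ppp1r15a* were not called. The median log2 difference of the 10 was 1.17, against 0.33 over all tested genes, and the count of 6 ranged from 4 to 8 when each library was left out in turn. Relative to that median, *Nupr1* was higher by 6.52, *Trib3* by 4.18, *Atf3* by 3.86, *Ddit3* by 2.72, *Atf5* by 0.85, *Ppp1r15a* by 0.83, *Cebpb* by 0.78, *Cebpg* by 0.66 and *Atf4* by 0.16, and *Chac1* stood at -0.04. *Atf3* passed the filter on low values only through the LKO livers, so that its difference is partly fixed by the filter. Without it, 5 of 9 were called higher with a median of 1.16.

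Levels moved with cell type markers in these livers, and the part of the markers in the members' values was not tested. The 10 Kupffer cell markers, all called higher, summed to between 197 and 212 FPKM in Ctrl livers and to 426, 479 and 640 in LKO livers 1, 2 and 3. The 10 monocyte and macrophage markers, of which 5 of 5 tested were called higher, summed to between 84.7 and 92.0 FPKM in Ctrl and to 196, 268 and 334 in LKO. Of these 5, *Gpnmb* passed the filter only through the LKO livers, and without it 4 of 4 were called higher. All 7 stellate cell markers and all 8 proliferation markers were called higher too, the latter with 2.10 to 4.91 FPKM in Ctrl and 138, 57.8 and 61.2 in LKO. Of the proliferation markers 7 passed the filter only through the LKO livers. All 5 cholangiocyte markers were called higher too, 2 of which passed the filter only in that way. None of the markers on these lists was at 0 across the 6 livers. In bulk tissue, fewer cells of a type and less RNA per cell cannot be told apart.

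**Figure D1:**
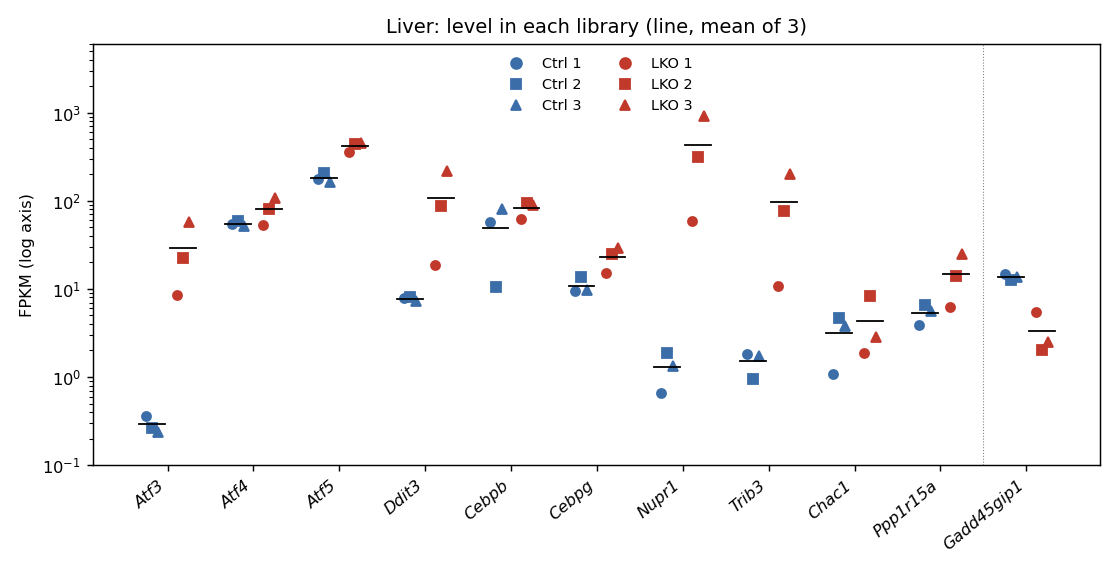
FPKM on a log axis of the 10 regulators and of *Gadd45gip1* (right of the dotted line) in the 3 Ctrl (blue) and 3 LKO (red) livers, with the mean of each group as a line. *Nupr1*, *Trib3*, *Atf3* and *Ddit3* form wide ladders in the LKO livers above all Ctrl values, while *Cebpb* in Ctrl liver 2 stands at 10.4 FPKM, far under the other livers.

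Among the transcription factors whose own translation the pathway controls, *Atf4* changed least. *Atf4* (mm10 chr15:80255184-80257545, plus strand) encodes the central bZIP factor of the response. It was 54.4, 58.8 and 51.8 FPKM in Ctrl livers 1 to 3 and 53.3, 81.2 and 107 FPKM in LKO livers 1 to 3. LKO liver 1 lay inside the Ctrl range and the other 2 above it. The log2 difference was 0.49 (SE 0.23, limma adjusted p = 0.12), or 0.16 above the median of all tested genes. Without LKO liver 1 it was 0.76 with a limma adjusted p of 0.00155, which is a call, and after median-ratio scaling it was 0.05 (adjusted p = 0.82).

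*Atf5* (chr7:44812256-44816658, minus strand), a bZIP factor linked to the mitochondrial unfolded protein response, had the highest level of the 10 in every Ctrl liver and in LKO livers 1 and 2. Ctrl livers 1, 2 and 3 held 178, 206 and 164 FPKM, LKO livers 1, 2 and 3 held 356, 437 and 457 FPKM, with no overlap. The difference was 1.18 on the log2 scale (SE 0.14, limma adjusted p = 0.0019), and the SD on the log2 scale, 0.16 in Ctrl and 0.19 in LKO, was larger than that of 81.7% and 44.8% of tested genes. It shares 571 bases with *Nup62* on the other strand, and the TruSeq v2 kit does not mark strand, so that reads of the pair cannot be told apart there. *Nup62* stood far lower, at 3.97 to 4.36 FPKM in Ctrl and 5.36 to 6.24 FPKM in LKO livers.

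*Ddit3* (chr10:127290793-127296288, plus strand) encodes CHOP, which joins ATF4 on target genes and favours cell death when stress persists. It was 7.97, 8.03 and 7.24 FPKM in Ctrl livers and 18.9, 86.2 and 217 FPKM in LKO livers 1, 2 and 3. All LKO livers lay above Ctrl, and they differed from each other far more than the Ctrl livers did. LKO exceeded Ctrl by 3.05 on the log2 scale (SE 0.75, limma adjusted p = 0.0189). That call was lost without Ctrl liver 1, 2 or 3 or LKO liver 2, with adjusted p from 0.0581 to 0.0644, at log2 differences of 2.91 to 3.07, and with ordinary variances (adjusted p = 0.0918). *Ddit3* shares 68 bases with *Mars* on the other strand, which was 21.5 to 25.6 FPKM in Ctrl and 22.9 to 26.5 FPKM in LKO livers and was not called (log2 difference 0.07, limma adjusted p = 0.624).

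*Atf3* (chr1:191170297-191183333, minus strand) is a stress-induced bZIP factor that acts largely as a repressor and also answers growth signals as an immediate early gene. It was 0.36, 0.26 and 0.24 FPKM in Ctrl livers and 8.46, 22.7 and 56.7 FPKM in LKO livers. Ctrl livers were under the 1 FPKM limit of the filter, and every LKO liver was above it. The ratio of the means was 101, and the log2 difference on the log2(FPKM + 1) scale 4.19 (SE 0.57, limma adjusted p = 0.0027). Immediate early genes as a list summed to between 89.3 and 93.4 FPKM in Ctrl and between 150 and 157 FPKM in LKO livers, with 5 of 9 tested called higher, and their part in *Atf3* was not tested.

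The C/EBP members differed from each other. *Cebpg* (chr7:35046422-35056566, minus strand), which lacks a strong activation domain of its own and pairs with ATF4, was 9.34, 13.5 and 9.80 FPKM in Ctrl and 15.3, 25.1 and 28.9 FPKM in LKO livers. The groups did not overlap, and LKO liver 1 came closest to Ctrl. On the log2 scale the difference was 0.99 (SE 0.24, limma adjusted p = 0.0189). It was not called after median-ratio scaling (0.57, adjusted p = 0.0566) or quantile normalization (0.64, adjusted p = 0.0509), with ordinary variances (adjusted p = 0.0831) or at a fold of 2, nor without Ctrl liver 1 (0.90, adjusted p = 0.0669), Ctrl liver 3 (0.93, adjusted p = 0.0701) or LKO liver 2 (0.91, adjusted p = 0.0698).

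*Cebpb* (chr2:167688915-167690432, plus strand), a factor of gluconeogenesis and the acute phase in liver, was 57.7, 10.4 and 80.3 FPKM in Ctrl and 62.6, 95.0 and 89.2 FPKM in LKO livers. Ctrl liver 2 stood far below the rest, Ctrl liver 1 just below the lowest LKO liver, and Ctrl liver 3 within the LKO values. The log2 difference was 1.11 (SE 0.67, limma adjusted p = 0.199), and without Ctrl liver 2 it was 0.25. The SD of the Ctrl values, 1.52 on the log2 scale, was larger than that of 99.9% of tested genes.

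*Nupr1* (chr7:126623246-126625470, minus strand), a small chromatin-associated stress protein, had the largest difference of the 10. It was 0.66, 1.88 and 1.32 FPKM in Ctrl livers and 59.3, 311 and 909 FPKM in LKO livers 1, 2 and 3. The lowest LKO liver was far above the highest Ctrl liver, and LKO liver 3 held the most. The ratio of the means was 331 and the log2 difference 6.85 (SE 0.86, limma adjusted p = 0.0022).

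*Trib3* (chr2:152337425-152344060, minus strand) encodes a pseudokinase that ATF4 and CHOP induce and that restrains ATF4 and AKT. It was 1.82, 0.96 and 1.74 FPKM in Ctrl and 10.7, 75.9 and 200 FPKM in LKO livers. No libraries overlapped, and LKO liver 3 held many times the level of LKO liver 1. Its log2 difference was 4.51 (SE 0.91, limma adjusted p = 0.0098). With ordinary in place of moderated variances the adjusted p was 0.0677.

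*Ppp1r15a* (chr7:45522917-45526268, minus strand) encodes GADD34, the stress-induced subunit that brings protein phosphatase 1 to eIF2α and ends the response. It was 3.89, 6.53 and 5.64 FPKM in Ctrl and 6.19, 13.8 and 24.7 FPKM in LKO livers. LKO liver 1 lay inside the Ctrl range. The log2 difference of 1.16 (SE 0.43) had a limma adjusted p of 0.0603 and was not called. Without LKO liver 1 it was 1.64 (adjusted p = 0.00083), a call, and with the deposited TPM it was 1.34 (adjusted p = 0.0366). A replicate block and the fit of all 24 libraries also called it, which made 4 of 16 alternatives.

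*Chac1* (chr2:119351242-119354327, plus strand), an enzyme that breaks down glutathione and an early ATF4 target in cultured cells, did not follow the others. It was 1.08, 4.61 and 3.80 FPKM in Ctrl and 1.87, 8.32 and 2.84 FPKM in LKO livers, and only LKO liver 2 lay above the Ctrl range. The log2 difference was 0.29 (SE 0.51, limma adjusted p = 0.645), and it turned to -0.15 without Ctrl liver 1, to -0.21 without LKO liver 2 and to -0.04 after median-ratio scaling.

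The start regions of the members are shown because the 3 genes with the largest rises share a short element there with *Chac1*, which was not called. Windows of 300 bases around RefSeq starts, from 250 before to 50 after, were searched on both strands for TGATGNAA, the core of the C/EBP-ATF response element that ATF4 and C/EBP factors bind. It was found in 4 of the 10 genes and in 3.97% of 32817 windows of that length. Its match lay on the strand opposite to the gene in all 4, so that the gene's strand shows its reverse complement. Below, capitals mark the match, and the bases run from 250 before the start to the last base before it, on the gene's strand in GRCm38.p6 (mm10).
Nupr1, chr7:126625471-126625720, minus strand: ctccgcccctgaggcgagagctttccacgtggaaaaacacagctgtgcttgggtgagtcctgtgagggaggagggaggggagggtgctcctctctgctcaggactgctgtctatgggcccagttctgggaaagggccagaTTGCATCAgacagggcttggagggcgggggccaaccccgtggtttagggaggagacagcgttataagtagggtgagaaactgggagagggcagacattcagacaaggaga
Atf3, chr1:191183334-191183583, minus strand: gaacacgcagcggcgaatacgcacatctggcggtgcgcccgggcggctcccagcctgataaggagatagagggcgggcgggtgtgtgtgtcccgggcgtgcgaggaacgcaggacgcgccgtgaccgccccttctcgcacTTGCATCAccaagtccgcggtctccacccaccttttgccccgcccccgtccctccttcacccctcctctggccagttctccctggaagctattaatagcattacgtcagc
Chac1, chr2:119350992-119351241, plus strand: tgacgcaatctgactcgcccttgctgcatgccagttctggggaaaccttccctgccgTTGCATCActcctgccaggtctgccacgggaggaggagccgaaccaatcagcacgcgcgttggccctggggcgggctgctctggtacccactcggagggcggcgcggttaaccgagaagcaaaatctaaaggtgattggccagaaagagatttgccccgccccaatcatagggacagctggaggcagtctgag
In both *Nupr1* and *Atf3* the match ran from position -110 to -103 and in *Chac1* from -193 to -186, counted with the first transcribed base as 0. In *Trib3* it lay after the start, from position 14 to 21, within this stretch of 30 bases. The first bases after its RefSeq start were found in no GENCODE transcript of *Trib3*, while those of the other members were in theirs, so that the place of this match rests on RefSeq alone.
Trib3, chr2:152344028-152344057, minus strand: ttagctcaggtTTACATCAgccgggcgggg
The windows of *Atf4*, *Atf5*, *Cebpb*, *Cebpg*, *Ddit3* and *Ppp1r15a* held no match to these letters. The cyclic AMP response element TGACGTCA, which reads the same on both strands and does not share a match with TGATGNAA, was found in 1 member and in 1.79% of all windows. That member was *Ppp1r15a*, with the match from position -12 to -5, in capitals within the last 100 bases before it.
Ppp1r15a, chr7:45526269-45526368, minus strand: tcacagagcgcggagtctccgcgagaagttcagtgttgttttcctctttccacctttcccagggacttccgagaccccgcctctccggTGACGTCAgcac
These matches describe letters only, and binding was not measured.

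The order of the LKO livers was nearly shared among the members. In 8 of 10, LKO liver 1 was lowest and LKO liver 3 highest, and in *Cebpb* and *Chac1* LKO liver 1 was lowest and LKO liver 2 highest. Their order was that of 10.6% of tested genes. *Gadd45gip1* was lowest in LKO liver 2, then LKO liver 3, and highest in LKO liver 1, as were 6.49% of tested genes. LKO liver 1, with the most *Gadd45gip1* left, was the lowest of the 3 for all 10 regulators. It was also the lowest for 69.6% of all tested genes and 79.1% of those called higher. After median-ratio scaling it was lowest for 9 regulators, 38.9% of tested genes and 60.1% of those called higher. LKO livers 2 and 3 stood in the opposite relation for 8 regulators, with more *Gadd45gip1* and more of the regulator in LKO liver 3.

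Against the Ctrl mean, *Nupr1* was 46.0, 241 and 705 times as high in LKO livers 1, 2 and 3. *Trib3* was 7.06, 50.4 and 133 times, and *Ddit3* 2.44, 11.1 and 28.0 times as high. The steps were much smaller for *Atf5*, at 1.95, 2.39 and 2.5 times, and for *Atf4*, at 0.97, 1.48 and 1.95 times. On the log2 scale the SD over LKO livers was larger for *Trib3* (2.09), *Nupr1* (1.97), *Ddit3* (1.74) and *Atf3* (1.3) than for at least 99.7% of tested genes.

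The same order was common among all genes. It held for 59.1% of tested genes and for 72.3% of those called higher, and 3 libraries allow no test of an order. After median-ratio scaling it held for 27.2% of tested genes, 46.1% of those called higher and 7 of the 10 members, with *Atf5* the one that left it and was then lowest in LKO liver 3. Hepatocyte markers ran the other way, with sums of 67750, 54515 and 41890 FPKM in LKO livers 1, 2 and 3, and Kupffer cell and macrophage sums ran the same way as the members. The part of these values in the order was not tested.

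**Figure D2:**
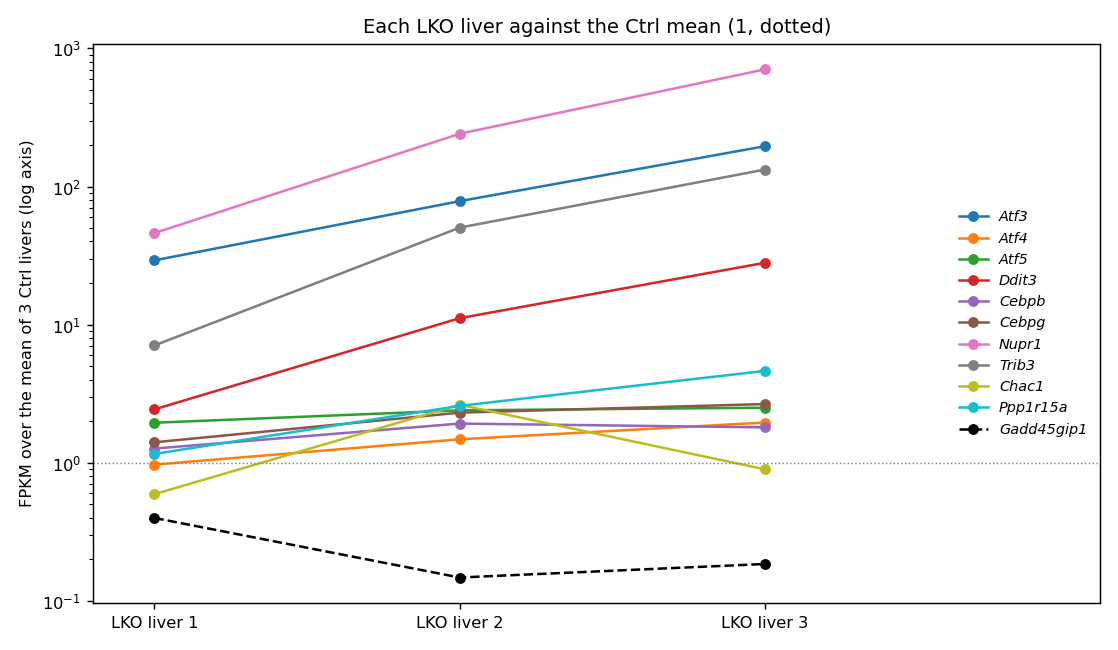
FPKM of each LKO liver divided by the mean of the 3 Ctrl livers, on a log axis, for the 10 regulators (solid) and *Gadd45gip1* (dashed), where 1 (dotted) is the Ctrl mean. *Nupr1* climbs from 46.0 to 705 and *Atf5* only from 1.95 to 2.5, while *Gadd45gip1* falls from 0.398 in LKO liver 1 to 0.148 in LKO liver 2 and 0.185 in LKO liver 3.

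In iWAT, where no gene of 12288 was called (0.0%), none of the 10 regulators was called by limma, and none was with ordinary variances. At an unadjusted p under 0.05 with no fold limit, 3 of 10 passed, against 15% of tested genes. *Ddit3* was 25.4, 25.3 and 21.4 FPKM in Ctrl and 15.6, 17.3 and 17.4 FPKM in LKO, with all LKO libraries below all Ctrl libraries and a log2 difference of -0.49 (SE 0.09, limma unadjusted p = 0.0014, adjusted p = 0.109). *Cebpb* was 102, 75.3 and 89.2 FPKM in Ctrl and 72.5, 46.9 and 64.8 FPKM in LKO, also without overlap (log2 difference -0.54, SE 0.18, limma adjusted p = 0.252). Such a lower group without overlap was seen in 11.0% of tested genes, and a higher one, which no member had, in 9.76%. *Ppp1r15a*, with 6.37, 6.46 and 7.65 FPKM in Ctrl and 7.27, 11.1 and 12.3 FPKM in LKO, had a difference of 0.49 (SE 0.18, limma adjusted p = 0.281).

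In the remaining 7 the Ctrl and LKO ranges overlapped. *Nupr1*, which iWAT holds at a high level already in Ctrl mice, was 149, 137 and 141 FPKM in Ctrl and 145, 124 and 104 FPKM in LKO. *Atf3* was 10.1 FPKM in Ctrl library 2 and between 1.88 and 4.64 FPKM in the other 5. That library also had the highest sum of monocyte and macrophage markers, 1715 FPKM against 630 to 1043 in the rest of iWAT, whose part in the value was not tested. Of the 10 differences 7 were below 0, and their median was -0.19.

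In GM, 9 regulators passed the filter and none was called by limma or with ordinary variances, as for all 10877 tested genes (0.0%). At an unadjusted p under 0.05, 2 of the 9 passed, against 6.83% of tested genes. *Chac1* was 3.24, 19.3 and 5.32 FPKM in Ctrl and 10.1, 35.6 and 34.5 FPKM in LKO, with overlap between Ctrl library 2 and LKO library 1. Its log2 difference of 1.57 (SE 0.66) had a limma unadjusted p of 0.048 and an adjusted p of 0.728. *Atf3* was 3.36, 3.06 and 1.99 FPKM in Ctrl and 4.46, 25.4 and 4.07 FPKM in LKO, so that the groups did not overlap and 1 library was far above the rest (log2 difference 1.26, SE 0.60, limma adjusted p = 0.759).

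*Cebpg* in GM was 14.5, 12.6 and 11.64 FPKM in Ctrl and 11.4, 11.60 and 9.996 FPKM in LKO, which only just did not overlap, and *Atf4* had an unadjusted p of 0.036 at a log2 difference of -0.21 (limma adjusted p = 0.693). Higher and lower groups without overlap were 4.38% and 7.2% of tested genes in GM. *Trib3* stayed between 0.39 and 0.67 FPKM in the 6 muscles and was not tested.

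In hypothalamus 8 regulators were tested, *Atf3* and *Trib3* being too low, and none was called by limma or with ordinary variances, against 0.0217% of tested genes. None had an unadjusted p under 0.05, against 3.72% of tested genes, and in none did the groups separate, as they did upward in 4.74% and downward in 4.97%. The largest differences were those of *Nupr1* (-0.34, SE 0.30), which was 30.6 FPKM in Ctrl library 3 and between 11.5 and 20.2 FPKM in the other 5, and *Ddit3* (-0.13, SE 0.10). *Cebpb* spread from 1.14 to 7.93 FPKM in Ctrl and from 0.77 to 6.60 FPKM in LKO, again with single libraries far from the rest.

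**Figure D3:**
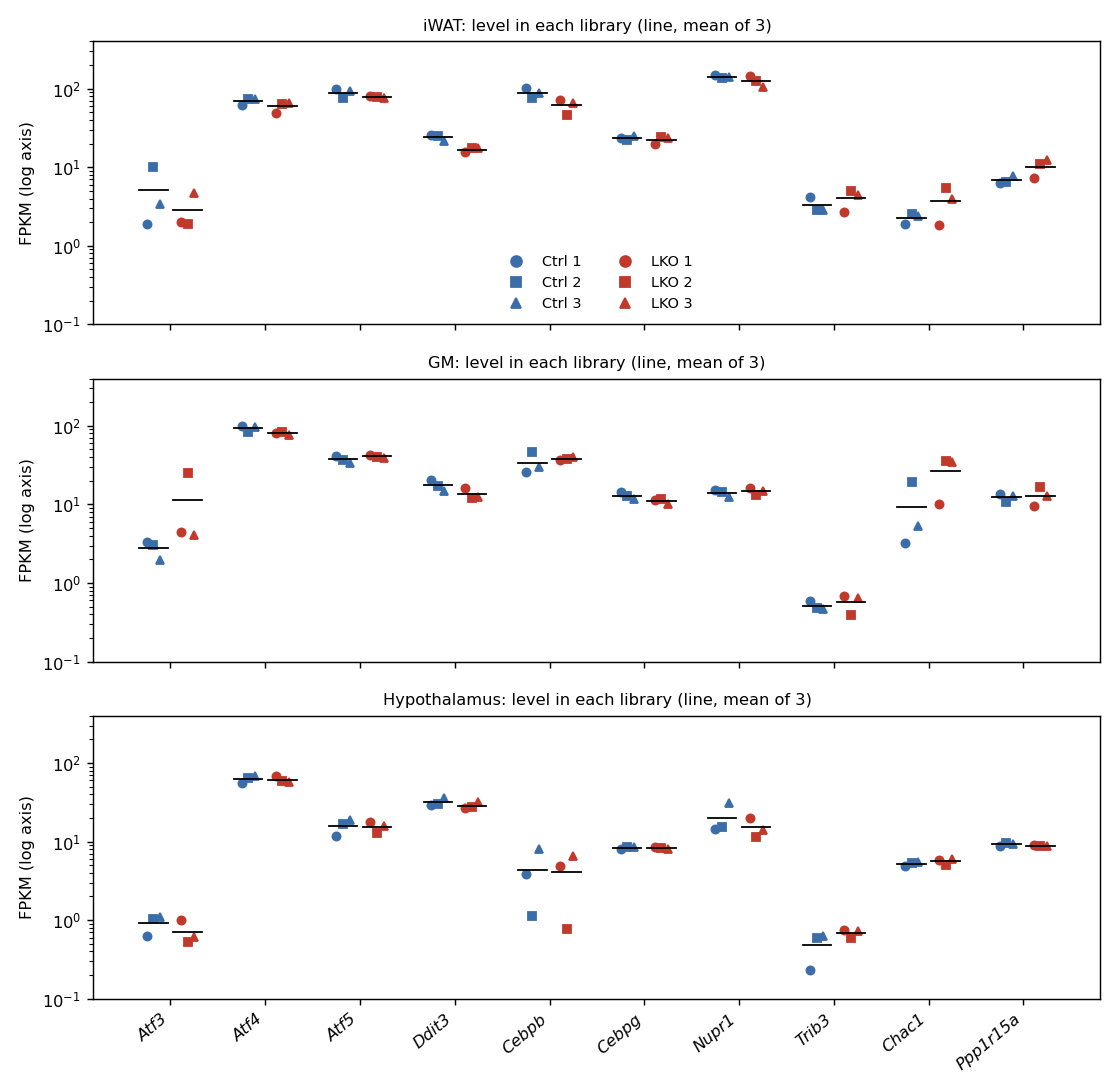
FPKM on a log axis of the 10 regulators in the 3 Ctrl (blue) and 3 LKO (red) libraries of iWAT, GM and hypothalamus, with group means as lines. Ctrl and LKO overlap for nearly all members, and the separate points are *Atf3* in iWAT Ctrl library 2 (10.1 FPKM) and GM LKO library 2 (25.4 FPKM).

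Whether the effect of LKO differed over the tissues was tested in 1 limma fit of all 24 libraries. The interaction passed for 6 of the 10 regulators, against 33.5% of 15849 tested genes. They were *Nupr1* (adjusted p = 4.0e-06), *Atf5* (0.00032), *Trib3* (0.00067), *Atf3* (0.0010), *Ddit3* (0.0012) and *Cebpg* (0.0019), the same 6 that rose in liver. For *Atf4* the adjusted p was 0.0706, for *Ppp1r15a* 0.0925, for *Chac1* 0.366 and for *Cebpb* 0.414. The libraries were taken as independent in this fit, since no label ties tissues to a mouse. The fit also gave each gene the same spread in every group. In LKO livers the log2 SD was 2.09 for *Trib3*, 1.97 for *Nupr1* and 1.74 for *Ddit3*. It was at most 0.57 in the other groups where they were tested, so their p-values rest partly on the smaller spread of those groups.

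**Figure D4:**
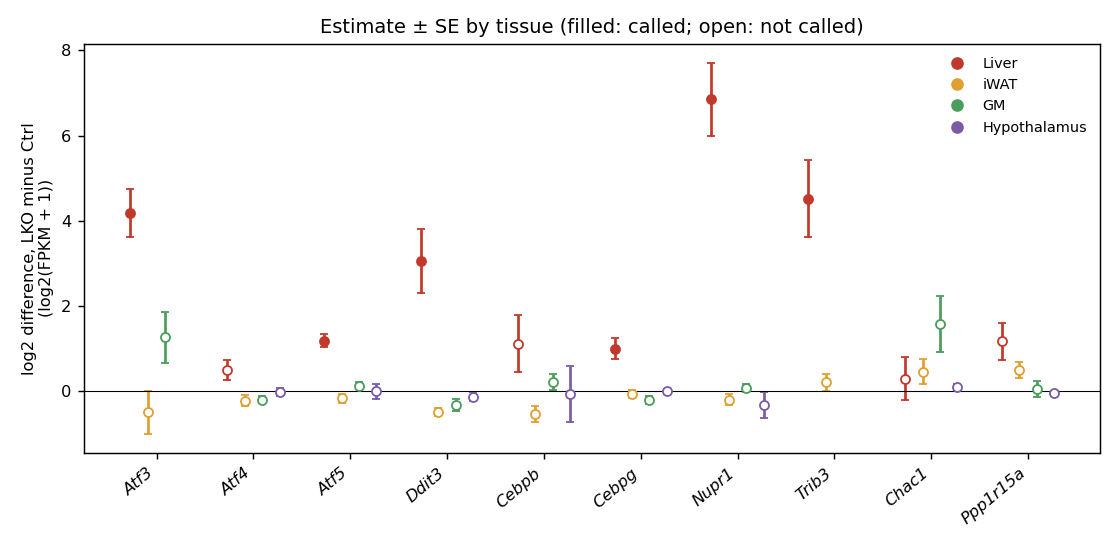
Log2 difference of LKO minus Ctrl on log2(FPKM + 1), with its SE, for each regulator in each tissue where it was tested, filled where called and open where not. All filled points are liver, from 0.99 (*Cebpg*) to 6.85 (*Nupr1*), and the highest points elsewhere are *Chac1* (1.57) and *Atf3* (1.26) in GM, both open.

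In Ctrl mice the levels of the regulators were compared across tissues, in the fit of all 24 libraries. That fit gives each gene the same spread in every group, LKO livers included. Between Ctrl liver and each of iWAT, GM and hypothalamus, 5 of 10 members were called different, where 60.4%, 50.2% and 74.7% of tested genes were. Between iWAT and GM, iWAT and hypothalamus, and GM and hypothalamus 7, 6 and 2 of 10 members were called, where 57.0%, 61.4% and 70.6% of all tested genes were. *Atf5* had a full order, from 183 ± 21.2 FPKM in liver (SD, n = 3) over iWAT (89.0 ± 12.0) and GM (37.4 ± 3.92) down to hypothalamus (15.7 ± 3.62), in which each neighbouring pair was called. *Nupr1* was highest in iWAT (142 ± 6.43 FPKM), followed by hypothalamus (20.2 ± 9.06) and GM (14.0 ± 1.3), which did not differ beyond their spread, and lowest in liver (1.29 ± 0.61). In LKO livers 2 and 3 *Nupr1* thus exceeded every iWAT library, and in LKO liver 1 none of them.

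*Ddit3* and *Ppp1r15a* were lowest in Ctrl liver. No neighbouring pair in their order of tissues was called, while the 2 highest tissues of each were called against liver. For *Ddit3* the SE of each neighbouring pair was 0.47, in a fit that includes LKO livers, where its log2 SD was 1.74. The Ctrl libraries of its neighbouring tissues did not overlap. *Ddit3* ran from hypothalamus (31.7 ± 3.75 FPKM) over iWAT (24.03 ± 2.30) and GM (17.5 ± 2.81) to liver (7.75 ± 0.44). *Ppp1r15a* ran from 12.3 ± 1.45 FPKM in GM over hypothalamus (9.23 ± 0.33) and iWAT (6.83 ± 0.72) to 5.35 ± 1.34 in liver. *Atf4* ran from 93.2 ± 8.39 FPKM in GM over iWAT (70.2 ± 7.23) and hypothalamus (62.6 ± 5.93) to 55.0 ± 3.56 in liver, with no neighbours called at the 1.5-fold limit but a called difference between GM and liver (log2 difference 0.75, SE 0.17, limma adjusted p = 0.00058).

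*Cebpg* was highest in iWAT (23.5 ± 1.58 FPKM) and was called against the next tissue, GM (12.9 ± 1.47), after which liver (10.9 ± 2.27) and hypothalamus (8.36 ± 0.24) followed without a call. *Cebpb* ran from iWAT (88.8 ± 13.2) over liver (49.5 ± 35.7) and GM (34.0 ± 10.6) to hypothalamus (4.31 ± 3.42), and only the last step was called. *Atf3*, *Trib3* and *Chac1* were low everywhere in Ctrl mice, with means of at most 5.12, 3.31 and 9.29 FPKM, and no neighbouring tissues were called for them, though tissues farther apart in the order were.

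Upstream of the regulators, the share called stood below or near the 27.4% of all tested liver genes. Of 4 eIF2α kinases 1 was called, *Eif2ak3* (PERK, the kinase of the endoplasmic reticulum), at a log2 difference of 0.83 (SE 0.19, limma adjusted p = 0.0148). Of 8 subunits of eIF2 and of its exchange factor eIF2B 1 was called, *Eif2s1*, which encodes eIF2α itself, at 0.83 (SE 0.20, limma adjusted p = 0.017). None of 5 tested genes of the mitochondrial relay to eIF2α, a list of 6 of which *Dele1* was not matched by symbol and not analysed here, and none of 4 phosphatase partners of GADD34 was called by limma at the 1.5-fold limit. The medians of these lists, 0.25, 0.43, 0.26 and 0.43, stood near the 0.33 of all tested genes. Phosphorylation was not measured here.

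Of 9 paralogs of the regulators 7 were tested, 1 was called higher and 1 lower, where 27.4% of all tested genes were called. *Jdp2*, close to *Atf3*, rose by 0.78 (SE 0.14, limma adjusted p = 0.0070), and *Cebpa*, the hepatocyte C/EBP factor, fell by 0.89 (SE 0.16, adjusted p = 0.0074). *Cebpa* was 124, 137 and 113 FPKM in Ctrl and 78.9, 70.6 and 53.0 FPKM in LKO livers, without overlap and in the reverse of the order of most members. *Cebpd* (0.34), *Trib1* (0.28), *Ppp1r15b* (0.05), *Cebpe* (-0.27) and *Chac2* (-0.27) were not called. *Nupr1l* was at most 0.58 FPKM and *Trib2* at most 0.95 FPKM in every liver, below the filter. *Trib2* lay at 0.34 to 0.47 FPKM in Ctrl and at 0.60, 0.84 and 0.95 FPKM in LKO livers, without overlap.

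Of 16 tested bZIP partners, with which the regulators form dimers, 7 rose, where 23.9% of all tested genes did. *Jun* (2.36, SE 0.32, limma adjusted p = 0.0027), *Fos* (1.46, SE 0.14) and *Junb* (1.39, SE 0.14), all parts of AP-1, had the largest rises. *Fos* was under 1 FPKM in every Ctrl liver and passed the filter only through LKO, as did 1 other partner, and 6 of the 14 without them rose. Of 9 tested immediate early genes, 5 rose, led by *Egr1* (2.82, SE 0.20), *Klf6* (2.38, SE 0.29) and *Btg2* (2.01, SE 0.13). Without *Fos* it was 4 of 8. *Fos* and *Junb* stand on both lists. Of the 9, 2 were in the order of LKO livers 1, 2 and 3 that most members had.

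Among known target genes of ATF4 and CHOP the calls in liver were all upward. Of 40 on the list 35 were tested, 26 were called higher and none lower by limma, where 23.9% of all tested genes were called higher, with a median of 1.06 against 0.33 over all tested genes. That count includes 4 genes that passed the filter only through the LKO livers (*Phgdh*, *Psat1*, *Aldh18a1* and *Vldlr*), and without them 22 of 31 were called higher with a median of 0.84. After median-ratio scaling 14 were called higher, where 8.99% of all tested genes were, and 1 lower, and without single livers the calls fell to 15 in 3 of the 6 cases, namely Ctrl liver 2, Ctrl liver 3 and LKO liver 2. Without Ctrl liver 1 or LKO liver 3 there were 17. The study followed *Fgf21* and *Gdf15* in these mice, so the list is not independent of these samples.

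*Fgf21*, the fasting hormone of liver, led the targets. It was 0.28, 1.65 and 0.59 FPKM in Ctrl and 14.2, 66.4 and 37.5 FPKM in LKO livers, highest in LKO liver 2, in which *Gadd45gip1* was lowest (log2 difference 4.28, SE 0.53, limma adjusted p = 0.0020). *Phgdh* (3.74, SE 0.58) and *Psat1* (3.70, SE 0.61), the first enzymes of serine synthesis, were next. Both were under 1 FPKM in every Ctrl liver and passed the filter only through LKO. *Phgdh* was at most 0.13 FPKM in Ctrl and 4.16, 19.2 and 28.7 FPKM in LKO livers 1, 2 and 3. Of the 35 targets 26 stood in the order of LKO livers 1, 2 and 3, and 20 after median-ratio scaling. The shares, 74.3% and 57.1%, stand beside 72.3% and 46.1% of all genes called higher.

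The unfolded protein responses of both organelles were listed apart, and the difference between the lists was not tested. Of 18 genes of the endoplasmic reticulum response 1 was called, *Atf6*, at 0.61 (SE 0.18, limma adjusted p = 0.0333), and the median was 0.02. Of 12 genes of the mitochondrial response, whose median was 0.50, 5 were called higher, where 23.9% of all tested genes were, led by the protease *Lonp1* (1.51, SE 0.41) and the chaperones *Hspa9* (1.2, SE 0.30) and *Hspd1* (0.93, SE 0.23), with limma adjusted p of 0.0259, 0.0189 and 0.0182. All 12 ran up from LKO liver 1 to LKO liver 3, 7 of them after median-ratio scaling, where 59.1% and 27.2% of all tested genes did. Of the endoplasmic reticulum list 12 of 18 ran down from LKO liver 1 to LKO liver 3, and 13 after that scaling, where 10.9% and 33.1% of all tested genes did. The same run down was seen in 5 of 6 hepatocyte markers, and in 6 after that scaling. It was seen in 5 of 8 proliferation markers both times and in 0 of 10 Kupffer cell markers.

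The opposite runs can be seen in single chaperones, chosen here after their values were seen. *Sdf2l1* was 51.0, 20.3 and 9.97 FPKM in LKO livers 1, 2 and 3, around a Ctrl range of 23.9 to 27.3 FPKM. *Hspa9* was 249, 444 and 607 FPKM in the same livers, above a Ctrl range of 168 to 188 FPKM. *Creld2*, which both the endoplasmic reticulum factors and ATF4 are known to induce, was 62.5, 34.2 and 26.8 FPKM, as *Sdf2l1* highest in LKO liver 1. LKO liver 1 was the lowest of the 3 for all 10 regulators, or for 9 after median-ratio scaling, as it was for 69.6% and 38.9% of all tested genes, and the highest for these 2 endoplasmic reticulum genes.

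**Figure D5:**
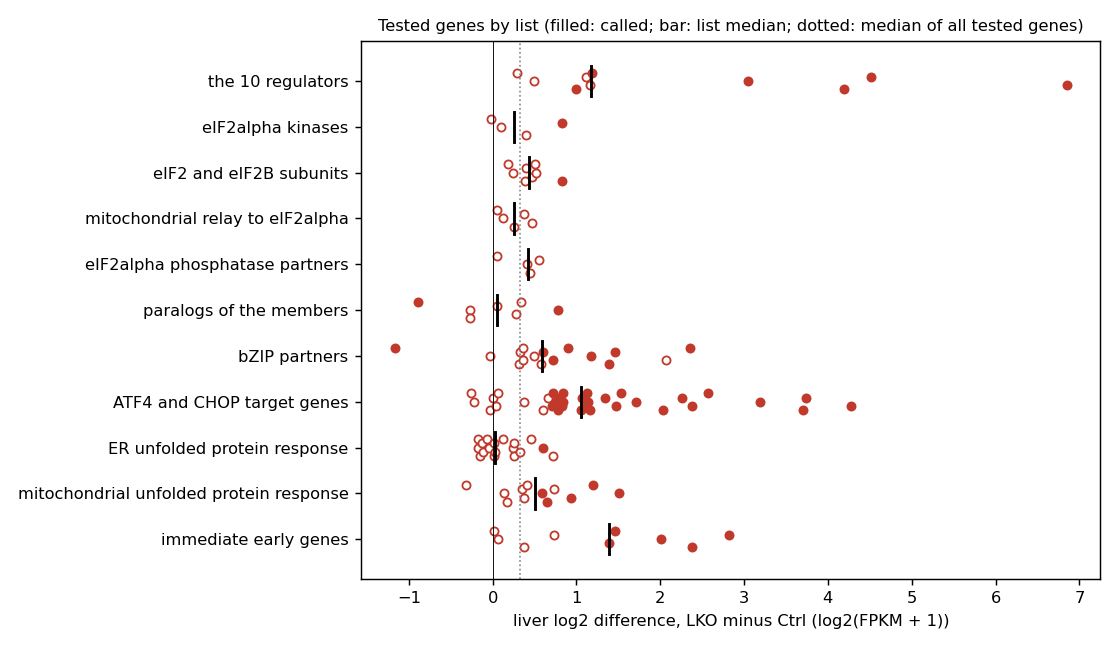
Liver log2 difference of LKO minus Ctrl for every tested gene of each list, filled where called, with the list median as a bar and the median of all tested genes (0.33) dotted. The 10 regulators and the ATF4 and CHOP targets reach far to the right, with medians of 1.17 and 1.06, while the endoplasmic reticulum list centres on 0.02.

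Outside the liver none of the list genes was called by limma or with ordinary variances. At an unadjusted p under 0.05 with no fold limit, 7 of 119 lay higher and 9 lower in iWAT, 3 of 109 higher and 4 lower in GM, and 1 of 117 higher and 9 lower in hypothalamus, against 15%, 6.83% and 3.72% of all tested genes.

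Genes whose pattern was most like that of the regulators were found by the Pearson correlation of log2(FPKM + 1) with the mean of the 10. Over 24 libraries they were *Acot2* (0.956), *Polr3c* (0.937), *Pgap2* (0.929), *Eif5a* (0.922) and *Mtm1* (0.911). *Acot2*, a mitochondrial acyl-CoA thioesterase, was between 2.79 and 4.61 FPKM in Ctrl livers and 16.4, 61.2 and 97.8 FPKM in LKO livers. Over the 6 livers they were *Rragd*, *Sdpr*, *Cdk17*, *Agfg1* and *Srsf6*, all at 0.999. *Rragd*, a GTPase that signals amino acids to mTORC1, was between 0.27 and 0.38 FPKM in Ctrl and 2.0, 6.11 and 10.2 FPKM in LKO livers. The points share libraries, depth and the scaling of the LKO livers, and these values are a description only.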

How the data were processed

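The libraries were made with a TruSeq RNA kit v2, which does not mark strand, and read as 100-base pairs. The authors deposited a joined table of FPKM and, per library, the mean coverage, FPKM and TPM of each gene on mm10. FPKM divide by transcript length and library fragments, TPM are scaled to a fixed sum, and the deposited coverage was used only to infer depth. FPKM were the same in both tables for 99.4% to 99.6% of singly listed genes (tolerance 1e-05). The submitters' processing notes name FastQC 0.11.5, Trimmomatic 0.32, HISAT2 2.0.5, Bowtie2 2.2.6, STAR 2.5.2b and StringTie 1.3.3b, with no roles. The values are not counts, so counting error is unknown and count models were not used.

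Genes at 1 FPKM or more in at least 3 of the 6 libraries of a tissue were tested, 3 LKO against 3 Ctrl, with limma 3.58.1 (R 4.3.3; lmFit, eBayes with trend) on log2(FPKM + 1), and p-values were adjusted by Benjamini-Hochberg over all of them. The interaction and the Ctrl tissues were tested in 1 fit of 24 libraries. The fit was tested on simulated data. Python 3.11.15 read the tables. Promoter windows came from RefSeq (GRCm38.p6), with all 10 members matched. Named genes were all members and paralogs, the 3 largest called changes of each other list and the 5 genes most like the members. Outside this rule, *Gadd45gip1*, *Dele1*, *Gdf15*, genes overlapping a member and some genes that passed the filter only through LKO livers were named. *Sdf2l1* and *Creld2* were added after their values were seen. The members and lists were chosen with earlier results of these data known. Alternatives were a pseudocount of 0.1, no filter, a filter on the mean, TPM, median-ratio and quantile scaling, ordinary variances, a fold of 2, a replicate block, all 24 libraries in 1 fit and each library left out. Some genes of these comparisons are not reported here.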

Additional observations from a re-analysis of the deposited data

Results flagged for a closer look

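The effect of LKO differed over the 4 tissues, by the limma interaction test over 24 libraries, for *Nupr1* (adjusted p = 3.99e-06), *Atf5* (0.000317), *Trib3* (0.000674), *Atf3* (0.00101), *Ddit3* (0.00118) and *Cebpg* (0.00188). In each, all 3 LKO livers lay above all 3 Ctrl livers, and no other tissue was called. Of all 15849 genes in that fit, 33.5% passed the same test. The fit gave each gene the same spread in every group, although *Trib3*, *Nupr1* and *Ddit3* varied far more in LKO livers than elsewhere.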

How the results depend on the processing

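In liver, *Atf3*, *Atf5* and *Nupr1* were called in all 16 alternatives, with log2 differences of 3.54 to 5.85, 0.74 to 1.31 and 5.94 to 7.90. The 6 calls among members became 3 with ordinary variances and 4 to 8 with each library left out. The 26 called targets became 15 after median-ratio scaling, 14 after quantile normalization, 11 with ordinary variances and 15 to 28 without single libraries. The interaction count of 6 ranged from 6 to 8 and the 15 differences of Ctrl liver from other tissues from 14 to 19 without single libraries. Over all genes in liver, 2622 were called higher and 384 lower, against 985 and 935 after median-ratio scaling, 931 and 744 after quantile normalization, 1281 and 218 with ordinary variances, 900 and 167 at a fold of 2, and 1533 to 3805 and 270 to 520 without single libraries. In iWAT 8 and 6 genes were called after either scaling, 78 and 32 without LKO replicate 1 and 195 and 109 in the fit of all libraries, where the usual fit called 0. No library or setting gave a call among members in iWAT, GM or hypothalamus. With ordinary variances fewer genes reach a given p, and the cause of the other changes was not tested.

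Direction turned 25 times, for members that were not called before or after. *Chac1* in liver became -0.043 after median-ratio and -0.12 after quantile scaling, and ran from -0.21 (without LKO replicate 2) to 0.64 over the single libraries left out. In iWAT *Atf3* ran from -0.93 to 0.041 (without Ctrl replicate 2) and *Cebpg* reached 0.023 (without LKO replicate 1). In GM *Nupr1* fell to -0.0032 (without LKO replicate 1), and *Ppp1r15a* ran from -0.14 (without LKO replicate 2) to 0.23. In hypothalamus, over single libraries left out, *Atf4* ran from -0.10 to 0.030, *Atf5* from -0.19 to 0.13, *Cebpb* from -0.62 to 0.56 and *Cebpg* from -0.024 to 0.014. There *Atf5* was 0.012 with TPM and 0.00095 after quantile scaling, and *Cebpg* was 0.019 with TPM, 0.00077 after median-ratio and 0.013 after quantile scaling.

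The samples were not treated as paired by replicate number, and the values could not settle if they were. Deviations of same-numbered Ctrl and LKO libraries correlated at 0.028 to 0.154 in liver and -0.124 to 0.302 in iWAT. In GM it was 0.05 to 0.354 and in hypothalamus -0.135 to 0.14. Differently numbered libraries gave -0.258 to 0.269, -0.419 to 0.298, -0.327 to 0.239 and -0.253 to 0.159 in the same tissues. The deepest iWAT libraries were Ctrl 1 and LKO 1, at 7.95 and 7.58 gigabases. With a replicate block 7 members were called in liver, *Ppp1r15a* being added (1.16, limma adjusted p = 0.021), 26 targets stayed called by number, 8 members passed the interaction, and 0 were called in each other tissue. With 3 libraries per group and no counts, the differences of variable genes such as *Cebpb* and *Chac1* could not be settled.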

Other observations

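The list of 15 immediate early genes, which share growth and stress signals with *Atf3*, summed to between 151 and 153 FPKM in Ctrl and to between 110 and 122 FPKM in LKO hypothalamus. Of 14 tested there, 7 had all LKO libraries below all Ctrl libraries, as 4.97% of tested genes had, and limma called none. The sum of 6 choroid plexus and pituitary markers went the other way between the genotypes. It was between 10.8 and 55.2 FPKM in Ctrl and between 131 and 589 FPKM in LKO hypothalamus, and its part was not tested. *Atf3* in those libraries was 0.64, 1.03 and 1.11 FPKM in Ctrl and 0.99, 0.53 and 0.61 FPKM in LKO, with overlap. The list is named here because of these values.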
